A study of Mus musculus with 768 samples.

Results

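The muscle stem cells of the count table were divided into 139 that held at least 1 read of *Calcr*, the calcitonin receptor gene, and 238 that held none, which together are all its cells. The cells were chosen by their *Calcr* read count alone, and the kinds were compared across genes within each mouse. The cells came from the tibialis anterior, a muscle of the lower leg, of male *Tg:Pax7-nGFP* mice (background C57BL/6;DBA2 F1/JRj), in which a nuclear GFP transgene driven by *Pax7* marks muscle stem cells. All were sorted as the 10% of cells brightest for GFP, from digested muscle that had been frozen and thawed, and their mRNA was amplified as full-length cDNA (scM&T-seq, which also reads the cell's DNA methylation). There were 4 young mice (Y4, Y5, Y7, Y8) and 2 old mice (O1, O5), labelled as 2 and 24 months of age, with no treatment in either group, and all carried the transgene. *Calcr* status was read from the same libraries as every other gene and was not sorted, so the kinds are a description of the measured cells and not separate populations.

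The calcitonin receptor is a G protein-coupled receptor of quiescent muscle stem cells, whose transcript is lost when these cells activate. It signals through the stimulatory G protein, adenylyl cyclase, cyclic AMP and protein kinase A, a route that restrains the coactivator YAP in muscle stem cells. Collagen V, made by the stem cells under Notch signalling, is known to act on this receptor, and loss of the receptor lets the cells leave quiescence and their niche.

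*Calcr* lies on the minus strand of chromosome 6, at chr6:3685680-3764714 of GRCm38 in the GENCODE M21 annotation. An intron of all 5 of its annotated transcripts holds 2 microRNA genes on the same strand, *Mir653* (chr6:3721301-3721385) and *Mir489* (chr6:3721897-3722003), neither of which overlaps a *Calcr* exon. miR-489 is known as a microRNA of quiescent muscle stem cells. The table counts messenger RNA and says nothing of these microRNAs themselves. Their mature sequences are shown because they share the transcription unit that defines the kinds, with the seed (bases 2 to 8) in capitals, and no 2 of the 4 share a seed (RefSeq, GRCm38.p6).
mmu-miR-489-3p: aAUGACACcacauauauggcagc
mmu-miR-489-5p: uGUCAUAUgugugaugacacuuucu
mmu-miR-653-3p: uUCACUGGaguuuguuucagu
mmu-miR-653-5p: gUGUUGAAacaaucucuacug

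The promoter windows of *Calcr* and of *Fos* follow, the second being the gene with the lowest p among those higher in *Calcr*-positive cells. Each window runs from 250 bases before to 50 after an annotated start (RefSeq, GRCm38.p6), and capitals mark TGACG on either strand (TGACG or CGTCA), the core of the element bound by CREB, the factor that protein kinase A activates. The full palindrome TGACGTCA contains both strings of letters and is in none of the 3. *Calcr* has 2 windows, with 2 matches in the inner one and 1 in the outer, and *Fos* has 2 matches. Windows not shown held matches for genes of either direction. Of genes higher in positive cells, *Btg2* had 2 (both in 1 full palindrome), *Nr4a1* 4 and *Myf5* 1. Of genes lower in positive cells, *Odc1* had 1, *Sdc4* 0 and the 2 windows of *Slc7a1* 0 and 2. Of 32851 mouse promoter windows of this length, 20.8% hold the motif, and a match is a description of letters and not a bound site.
Calcr chr6:3763574-3763873, minus strand: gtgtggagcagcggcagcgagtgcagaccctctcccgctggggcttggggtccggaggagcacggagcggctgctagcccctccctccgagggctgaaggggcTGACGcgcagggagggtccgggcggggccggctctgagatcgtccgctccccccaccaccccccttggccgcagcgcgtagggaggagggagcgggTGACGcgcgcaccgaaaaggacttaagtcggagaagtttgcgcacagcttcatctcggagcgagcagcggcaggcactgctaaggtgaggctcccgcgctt
Calcr chr6:3764664-3764963, minus strand: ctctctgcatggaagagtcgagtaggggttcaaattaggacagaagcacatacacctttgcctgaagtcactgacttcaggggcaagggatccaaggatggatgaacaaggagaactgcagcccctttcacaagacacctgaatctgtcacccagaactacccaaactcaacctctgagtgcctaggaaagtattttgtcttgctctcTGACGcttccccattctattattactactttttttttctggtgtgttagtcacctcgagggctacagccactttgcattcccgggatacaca
Fos chr12:85473640-85473939, plus strand: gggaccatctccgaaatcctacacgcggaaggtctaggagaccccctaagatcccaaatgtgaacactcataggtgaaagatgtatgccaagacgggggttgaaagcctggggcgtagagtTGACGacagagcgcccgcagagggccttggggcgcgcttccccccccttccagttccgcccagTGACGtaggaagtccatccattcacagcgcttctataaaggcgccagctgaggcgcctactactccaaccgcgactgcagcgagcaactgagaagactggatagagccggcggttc

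Where present, *Calcr* was abundant. Positive cells held between 1 and 978 reads with a median of 125, or 476 RPM (the cell's *Calcr* reads scaled to 1000000 reads on genes). Of the 139 positive cells, 79 held 100 reads or more, 35 held 10 to 99 and 25 held 1 to 9. Just inside the rule were 8 cells with exactly 1 read and 6 with 2 reads, and just outside it were the 238 cells with 0. A read is not an independent molecule, since the libraries carry no molecular identifiers, and intervals on shares given here cover counting error only. A cell with 0 reads is one in which *Calcr* was not detected at this depth. A limit of 3 reads on a count of 0 would hold only for independent reads, so no limit is set here.

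Every mouse had both kinds of cell. *Calcr* was detected in 27 of 60 cells of Y4 (45%, Wilson 95% interval 33.1% to 57.5%), 17 of 44 of Y5 (38.6%, 25.7% to 53.4%) and 34 of 74 of Y7 (45.9%, 35.1% to 57.2%). The share was 22 of 75 in Y8 (29.3%, 20.2% to 40.4%), 17 of 56 in O1 (30.4%, 19.9% to 43.3%) and 22 of 68 in O5 (32.4%, 22.4% to 44.2%). The old mice lay within the young range, and all 6 intervals overlapped. Young mice had a mean share of 39.7% ± 7.65 (SD, n = 4) and old mice 31.4% ± 1.41 (SD, n = 2). The median level in positive cells ran from 181 RPM in O1 to 826 RPM in Y8, with the others between 396 and 551, so that level and share did not order the mice alike. O1 also had the most positive cells with under 10 reads, 7 of its 17.

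**Figure D1:**
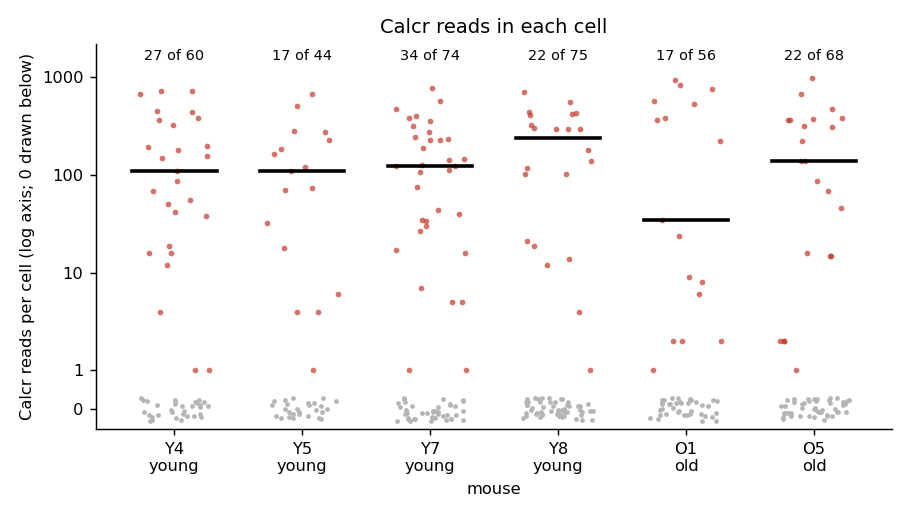
*Calcr* reads in each cell (log axis), by mouse, with positive cells in red, the median of positive cells as a bar and cells with 0 reads in grey below. Positive cells spread from 1 to 978 reads in a continuous range, and every mouse has cells of both kinds.

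Reads per cell overlapped widely between the kinds. After *Calcr* itself was taken out, the median number of reads per cell was 272244 in positive and 273758 in negative cells. Within mice the positive median was higher in 4 of 6, with a mean difference of 7901 reads ± 26910 (SD, n = 6 mice; exact two-sided sign-flip permutation test over mice, p = 0.531, where the smallest possible p is 0.0313). Positive cells had more genes detected. Their median exceeded that of the negative cells by 56 genes in Y4, 130 in Y5, 258 in Y7, 64 in Y8 and 115 in O1, and was below it by 2.5 genes in O5. The mean difference was 103 genes ± 89 (SD, n = 6 mice; exact permutation test, p = 0.0625). Once every cell was thinned to 100000 reads the difference was 123 genes ± 65.2, higher in positive cells in 6 of 6 mice (exact permutation test, n = 6, p = 0.0313, the smallest possible). Thinning left 129 positive cells, and the 10 that lost *Calcr* had held 4 reads or fewer. The kinds were themselves set by detection of a transcript, and thinning evens out reads only. Whether a split by another gene would give a like difference in genes detected was not tested. The share of cells with a read of a gene depends on the number of genes detected. Values are therefore also given in cells matched within each mouse on genes detected, 125 of each kind. Among named genes, shares in matched cells are given for *Fos*, *Dtx4*, *Myf5*, *Col5a1* and *Gas1* only.

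For the comparison across genes, reads were summed over the positive and over the negative cells of each mouse, giving 12 sums in 6 pairs. Of 12588 genes tested, 0 passed an adjusted p of 0.05 in edgeR's quasi-likelihood test with the mouse as block, and the smallest adjusted p was 1. At an unadjusted p under 0.05 there were 338 genes (2.69%), 85 higher (0.675%) and 253 lower (2.01%) in positive cells. limma, on the mean log2(RPM + 1) of cells, also called 0 genes (739 at an unadjusted p under 0.05), with a smallest adjusted p of 0.161. DESeq2 called 340 (2.7%), 88 higher (0.699%) and 252 lower (2%). Of the 340 calls, 304 (89.4%) had a read in under 38 of all cells, against 53.2% of all genes tested. Only 5 of the DESeq2 calls were among the 773 genes detected in 50% of all cells or more (called common genes below), *Fos*, *Egr1*, *Btg2* and *Dnajb1* higher and *Ptp4a2* lower in positive cells. On simulated sums for this comparison over 12588 genes, edgeR recovered 84.8% of 8-fold, 53.7% of 4-fold and 7.46% of 2-fold changes among common genes, but 9.09%, 4.48% and 1.49% among all genes. The genes described below therefore did not pass in edgeR or limma, DESeq2's adjusted p is given for each gene named below that it called, and each gene is given by its values.

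The fitted log2 fold change (positive over negative) was above 0 for 37% of all genes tested, with a median of -0.29. In the matched cells, where both sums hold the same number of cells, the share was 51.1% and the median 0.02. Among all genes, 0.659% were higher in positive cells in 6 of 6 mice and 1.89% were lower in 6 of 6. For the common genes these shares were 1.16% and 5.3%, and 36.2% had a fold change above 0 (42.2% in matched cells). The share of cells with a read was higher in positive cells in 6 of 6 mice for 2.07% of all genes and 3.49% of the common genes, and for 0.429% and 0.906% in matched cells. Counts of members in lists are to be read against these shares, which apply to every list below.

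**Figure D2:**
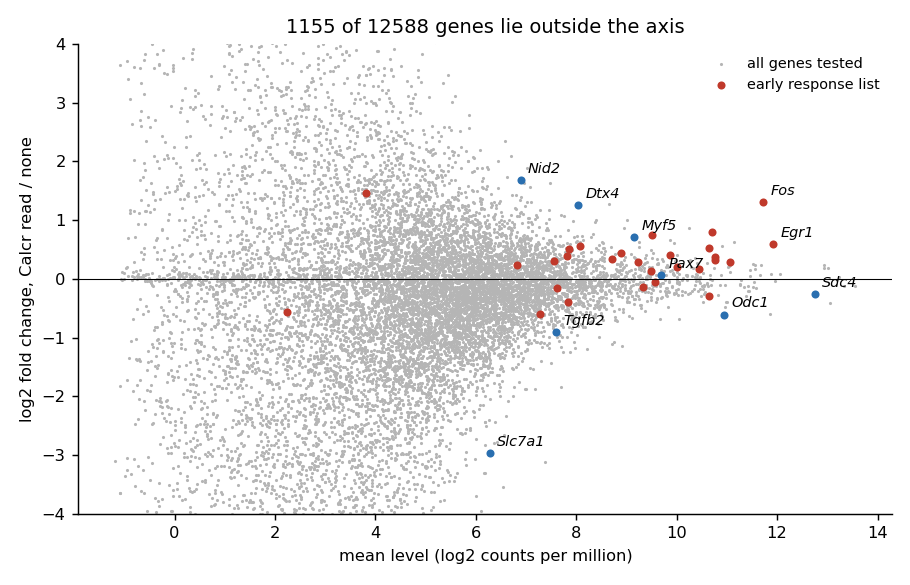
Fitted log2 fold change, positive over negative cells, against the mean level in log2 CPM, with all 12588 genes in grey, early response genes in red and other named genes in blue. *Fos* and *Dtx4* lie above and *Odc1* below genes of like level, and the spread widens greatly towards low levels.

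Early response genes, transcription factors and feedback regulators induced within minutes by a stimulus, had the highest median of the 9 lists of pathways and processes. *Fos*, a subunit of the AP-1 transcription factor (chr12:85473890-85477273), ran from 2152 to 6748 CPM (reads scaled to 1000000 in each sum) in positive cells, with a median of 4775, and from 1431 to 2910 in negative cells, with a median of 1683. It was higher in positive cells in 6 of 6 mice, and the highest negative value, of O5, exceeded the positive value of Y7, so the groups overlapped. The log2 fold change was 1.303 (standard error 0.22), and 2.02 in matched cells. It was 1.27 in young mice alone and 1.45 in old mice alone, and 1.13 and 1.51 on sequencing lanes 2 and 3. By cell, *Fos* was read in 70.7% ± 6.06 of positive and 53.5% ± 6.31 of negative cells (mean of mice, SD, n = 6), and the lowest positive mouse (63.6%) lay above the highest negative one (60.4%). In matched cells these shares were 72.9% ± 7.06 and 47.4% ± 9.65 (SD, n = 6), again higher in 6 of 6 mice. Its adjusted p was 1 in edgeR, 0.161 in limma and 4.3e-05 in DESeq2. Tested among the 773 common genes alone, a choice made after seeing the data, it was 0.176 in edgeR and 0.173 in limma.

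*Egr1*, a zinc finger factor of the same response, ran from 1716 to 10740 CPM in positive cells (median 4416) and from 1490 to 6021 in negative cells (median 2404). It was higher in 5 of 6 mice, the exception being Y7 at 1716 against 1785. The log2 fold change was 0.59 (SE 0.16, edgeR adjusted p = 1, DESeq2 adjusted p = 0.0271), with 0.46 on lane 2 and 0.77 on lane 3. Both kinds of O1 cell held more *Egr1* than any other mouse, at 10740 and 6021 CPM. *Btg2*, an antiproliferative gene, had a log2 fold change of 0.75 (SE 0.22, DESeq2 adjusted p = 0.0303) and was higher in 5 of 6 mice. Its range was 195.5 to 1602 CPM in positive and 165.0 to 858 CPM in negative cells.

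Of the other AP-1 subunits, *Jun* had a log2 fold change of 0.53 (SE 0.20), *Junb* of 0.38 (SE 0.19), *Atf3* of 0.40 (SE 0.26) and *Fosb* of 0.28 (SE 0.16), each higher in 5 of 6 mice. *Fosl2* (0.51) and *Jund* (0.28) were higher in 4 of 6, and *Fosl1* (-0.39) was lower in 5 of 6. *Nr4a1*, an orphan nuclear receptor of the early response, stood at 5411 against 953 CPM in O1 and at 668 against 762 CPM in Y7. Its log2 fold change was 0.80 (SE 0.31), or 0.50 without O1. *Myc*, a growth factor-induced driver of growth and division, went the other way, with -0.30 (SE 0.13) and lower values in positive cells in 6 of 6 mice. Of 29 early response genes tested, 21 had a log2 fold change above 0, with a median of 0.30, and 0 passed the adjusted threshold. In matched cells 23 of 29 were above 0, with a median of 0.72. 11 of the 29 were higher in at least 5 of 6 mice, against 5.55% of all genes and 8.67% of the common genes, and 1 (*Fos*) was higher in 6 of 6. In the other direction, 3 of the 29 were lower in at least 5 of 6 mice, against 12.2% of all genes and 23.5% of the common genes. Summed over the list, positive cells had 17180 to 51230 CPM and negative cells 17690 to 25870, and the sum was higher in positive cells in 5 of 6 mice. Such genes are also known to be induced when muscle is dissociated, as it was for all cells here.

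**Figure D3:**
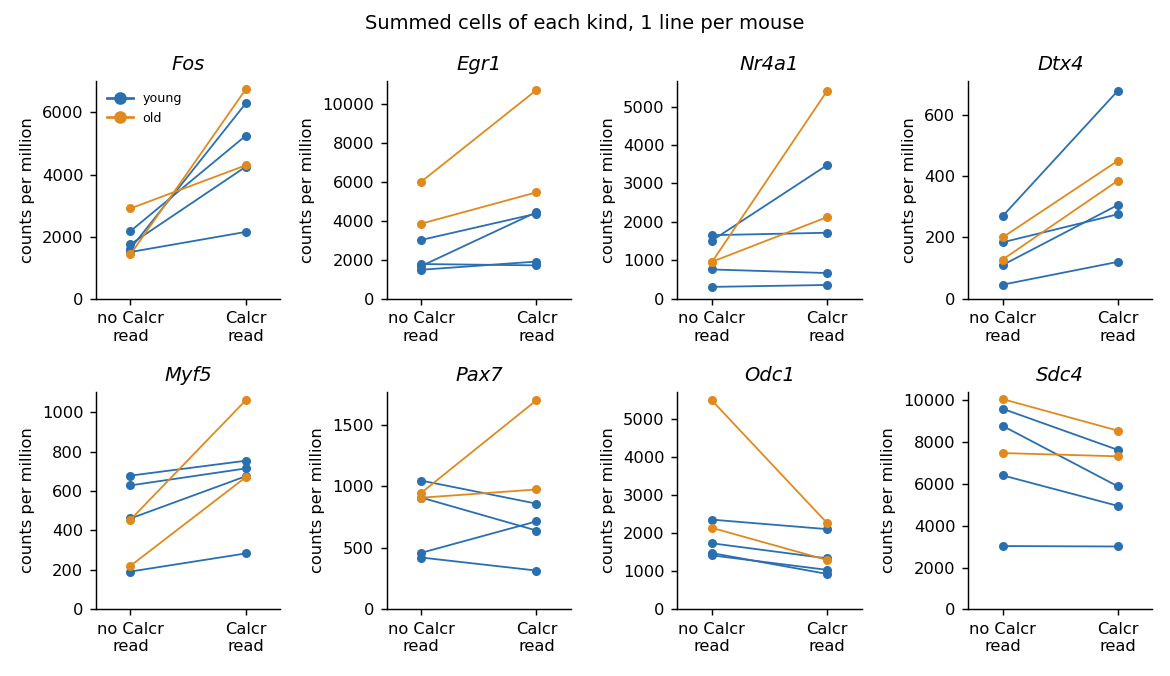
CPM in the summed cells of each kind, 1 line per mouse, young in blue and old in orange, for 8 named genes. *Fos*, *Dtx4* and *Myf5* are higher and *Odc1* and *Sdc4* lower in positive cells in all 6 mice, *Egr1* and *Nr4a1* are higher in 5, and *Pax7* is higher in 3.

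Among myogenic factors, *Myf5*, a determination factor of the muscle lineage (chr10:107482908-107486134), was higher in positive cells in 6 of 6 mice. It ran from 284 to 1060 CPM in positive cells (median 695) and from 192 to 678 in negative cells (median 458), so the groups overlapped. The log2 fold change was 0.71 (SE 0.24, edgeR adjusted p = 1, DESeq2 adjusted p = 0.0756). It was 1.16 on lane 2 and 0.30 on lane 3. It was 0.38 in young and 1.46 in old mice, but this difference by age, 1.05 (SE 0.39), did not pass adjustment (edgeR interaction, adjusted p = 1). A *Myf5* read was found in 111 of the 139 positive and 162 of the 238 negative cells. The share of cells was higher in 5 of 6 mice, and in 4 of 6 in matched cells (79.1% against 64.6%). *Pax7*, the defining factor of the lineage and the driver of the sorted GFP, was higher in 3 of 6 mice, with medians of 787 and 908 CPM and a log2 fold change of 0.06 (SE 0.21). Its lowest and highest values were 315 and 1698 CPM in positive cells and 421 and 1046 in negative cells. *Myod1*, a factor that rises on activation, was higher in 3 of 6 mice (-0.15, SE 0.29), and *Des*, the muscle intermediate filament desmin, was lower in 5 of 6 (-0.28, SE 0.15). Of 21 myogenic genes tested 11 were above 0 (median 0.06), and 0 passed. In matched cells 14 of 21 were above 0, with a median of 0.43.

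In the Notch pathway, which holds muscle stem cells in quiescence, *Dtx4* had the highest log2 fold change of the list. It encodes a ubiquitin ligase of the Deltex family, which acts on Notch (chr19:12466338-12501454). It ran from 120 to 678 CPM in positive cells (median 345) and from 45.8 to 269 CPM in negative cells (median 156). It was higher in 6 of 6 mice, by 1.497 times in Y7 at the least and 3.01 times in O5 at the most. The log2 fold change was 1.26 (SE 0.25), 1.48 in matched cells, 1.21 in young and 1.43 in old mice, and 1.15 and 1.41 on lanes 2 and 3, with an adjusted p of 1 in edgeR, 0.170 in limma and 0.000151 in DESeq2. A *Dtx4* read was found in 83 positive and 86 negative cells, 59.2% and 38.3% as the mean of mice, and the share was higher in 6 of 6 mice (5 of 6 in matched cells, 58.3% against 38.6%). When thinned cells were placed in the kinds again by their remaining *Calcr* reads, the log2 fold change of *Dtx4* was 0.66. Of the receptors, *Notch1* had a log2 fold change of 0.20 (SE 0.29), *Notch2* of -0.82 (SE 0.36) and *Notch3* of -0.03 (SE 0.31). *Notch2* was lower in 5 of 6 mice, at 51.7 to 564 CPM in positive and 139 to 403 CPM in negative cells. *Heyl*, a target of Notch, had 0.14 (SE 0.52) and *Rbpj*, the DNA-binding partner of the activated receptor, 0.33 (SE 0.59). *Hes1* was read in 6.32% of positive and 7.89% of negative cells and *Hey1* in 17.4% and 10.7%, and their sums are therefore not given singly. Of 30 Notch genes tested 10 were above 0, with a median of -0.25, and 13 of 27 were above 0 in matched cells, with a median of -0.05. 1 member (*Dtx4*) was higher in 6 of 6 mice and 1 (*Maml3*, a coactivator of RBPJ) was lower in 6 of 6.

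The genes for collagen V, the known extracellular partner of the receptor, had fitted differences of either sign, each of which moved most when 1 mouse was left out (Y4 or O1). *Col5a1* was higher in positive cells in 5 of 6 mice (0.63, SE 0.51), at 15.0 to 267 CPM against 17.8 to 129 CPM. Y4 alone stood at 267 against 37.96 CPM, and without Y4 the log2 fold change was 0.26. *Col5a1* was read in 57 of 139 positive and 52 of 238 negative cells, and its share was higher in 6 of 6 mice (5 of 6 in matched cells, 36.2% against 22.8%). *Col5a2* (-0.27, SE 0.50) and *Col5a3* (-0.58, SE 0.81) were each lower in 4 of 6 mice, with shares of 48.2% and 33.5% in positive and 49.3% and 33.2% in negative cells. In O1 they stood at 20.6 against 147 CPM and at 0 against 15.7 CPM, and without O1 *Col5a2* was at 0.18 and *Col5a3* at -0.0017. *Col3a1*, a fibrillar collagen, had -0.03 (SE 0.17). *Nid2*, which encodes the basement membrane protein nidogen-2, was higher in 6 of 6 mice, at 107 to 279 CPM in positive and 15.6 to 100.2 CPM in negative cells, so its lowest positive value lay just above its highest negative one. Its log2 fold change was 1.68 (SE 0.51, edgeR adjusted p = 1, DESeq2 adjusted p = 0.0225), or 1.29 without O1, from 38 positive and 40 negative cells with a read, and it was 1.87 on lane 2 and 1.57 on lane 3.

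Of the surface markers by which muscle stem cells are recognised, *Sdc4*, a heparan sulfate proteoglycan read in all 139 positive and 237 of 238 negative cells, was lower in positive cells in 6 of 6 mice. The difference was small, -0.26 (SE 0.09), with 3010 to 8551 CPM in positive and 3031 to 10060 CPM in negative cells. *Vcam1*, a cell adhesion molecule, had -0.12 (SE 0.29) and was read in 75.1% and 74.2% of cells. *Cdh15*, which encodes M-cadherin, had 0.23 (SE 0.28), *Itgb1*, the β1 integrin chain, had -0.48 (SE 0.26), and *Dag1*, which encodes dystroglycan, had 0.36 (SE 0.29), or 0.07 without O1. The share of cells with an *Itgb1* read went the other way from its fold change. It was 77.3% of positive and 67.3% of negative cells, higher in 5 of 6 mice. Of 48 genes of collagens and niche adhesion tested, 20 were above 0 with a median of -0.12, and 29 of 47 were above 0 in matched cells with a median of 0.17. 1 (*Nid2*) was higher and 1 (*Sdc4*) lower in 6 of 6 mice.

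Genes of the receptor's own route showed no common direction. *Gnas*, which encodes the stimulatory G protein α subunit, was read in every cell of both kinds, with a log2 fold change of 0.19 (SE 0.10) and higher values in 3 of 6 mice. *Prkar1a*, a regulatory subunit of protein kinase A, had 0.20 (SE 0.20), or 0.07 in matched cells. Its share of cells was higher in 6 of 6 mice, at 85.4% against 72.8%, and is not given in matched cells. A share higher in 6 of 6 mice was found for 3.49% of the common genes in all cells and 0.906% in matched cells. *Pde4b* and *Pde4d*, phosphodiesterases that break down cyclic AMP, had -0.15 (SE 0.15) and -0.12 (SE 0.22). *Crem*, a transcription factor induced by cyclic AMP, had -0.47 (SE 0.30) and was lower in 5 of 6 mice. Of the receptor activity-modifying proteins that turn the calcitonin receptor into a receptor for amylin, *Ramp2* had 0.01 (SE 0.31), *Ramp1* was read in 0.980% of positive and 0.417% of negative cells, and *Ramp3* had 0 reads in all cells. *Yap1* had 0.34 (SE 0.45) and its homologue *Wwtr1*, which encodes TAZ, had -0.62 (SE 0.29). Of 40 genes tested of the 49 listed, 12 were above 0 with a median of -0.36. In matched cells 23 of 39 were above 0 with a median of 0.14, so the side of 0 rested on the cells compared. 1 member was lower in 6 of 6 mice, *Prkar2b*, a regulatory subunit of protein kinase A (-2.38, edgeR unadjusted p = 0.106). *Prkar2b* was not among the common genes, and its log2 fold change was -0.34 in matched cells.

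Targets of YAP were also split. *Tgfb2*, which encodes a transforming growth factor, was lower in positive cells in 6 of 6 mice, at 40.5 to 274 CPM against 140 to 299 CPM (-0.91, SE 0.32, edgeR adjusted p = 1). In O1, which had the lowest values of both kinds, it stood at 40.5 against 140 CPM. *Ctgf* was lower in 5 of 6 mice (-1.24, SE 0.57) and *Cyr61*, another matricellular gene, was higher in 5 of 6 (0.86, SE 0.42). Of 17 targets tested 8 were above 0 with a median of -0.06, and 10 of 17 were above 0 in matched cells with a median of 0.15.

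Quiescence genes had 21 of 38 above 0 and a median of 0.02, against 21 of 38 and 0.17 in matched cells. Of these 38, 3 were higher and 11 lower in at least 5 of 6 mice. The shares were 5.55% and 12.2% for all genes, and 8.67% and 23.5% for the common genes. *Bmp4*, a bone morphogenetic protein ligand, had 0.65 (SE 0.28) and was higher in 5 of 6 mice. *Gas1*, a growth arrest gene, had 0.36 (SE 0.22), and its share of cells was higher in 6 of 6 mice, at 69.3% against 55.7% (5 of 6 in matched cells, 68.7% against 57%). *Apoe*, apolipoprotein E, was lower in 5 of 6 mice (-0.49, SE 0.13) and *Spry1*, an inhibitor of growth factor signalling that keeps stem cells quiescent, had -0.73 (SE 0.45). A *Spry1* read was nonetheless found in 39.4% of positive and 34.2% of negative cells, with a higher share in 5 of 6 mice. Of the 22 cell cycle genes tested 9 were above 0 (median -0.28, or 0.28 with 11 of 20 in matched cells). *Ccnd1*, the G1 cyclin D1, had -0.42 (SE 0.48). Ribosomal protein genes, of which 79 of 81 tested were common genes, had 16 of 81 above 0 with a median of -0.11, and 26 of 81 and -0.08 in matched cells. Of these 81, 2 were higher and 24 lower in at least 5 of 6 mice.

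*Odc1*, ornithine decarboxylase, the first enzyme of polyamine synthesis (chr12:17544794-17551505), was among the lowest p in the other direction. It was lower in positive cells in 6 of 6 mice, at 930 to 2263 CPM (median 1317) against 1417 to 5481 CPM (median 1936). The highest negative value, of O1, lay far from the rest. The log2 fold change was -0.61 (SE 0.15, edgeR adjusted p = 1, DESeq2 adjusted p = 0.0634), with -0.85 on lane 2 and -0.32 on lane 3. *Slc7a1*, a transporter of arginine, ornithine and lysine, was lower in 6 of 6 mice as well, at 1.52 to 75.1 CPM against 42.3 to 269 CPM (-2.97, SE 0.73, edgeR adjusted p = 1, DESeq2 adjusted p = 0.00132). It was read in 26 positive and 55 negative cells, or 17.5% and 22.6% as the mean of mice. *Dek*, a chromatin gene known as a target of miR-489 and added here after the lists were made, had -0.09 (SE 0.39) and medians of 88.3 and 91.6 CPM.

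The remaining genes of lowest p rested on a handful of cells. *Il15*, a cytokine, had 1186 reads in 7 positive cells and 61 reads in 1 negative cell. *1600002H07Rik* had 1441 reads in 6 positive cells, from 3 of the 6 mice, and 0 reads in the negative cells. No fold is given for *1600002H07Rik*, since reads are not independent molecules. *Rnf168*, a ubiquitin ligase of DNA repair, had 2 reads in 1 positive cell and 1485 in 15 negative cells. *Alg10b*, a glucosyltransferase, was read in 2 and 20 cells and *Greb1l* in 1 and 12. DESeq2 called *Il15* (adjusted p = 6.1e-06), *Rnf168* (4.3e-05), *Alg10b* (3.6e-05) and *Greb1l* (0.0166) but not *1600002H07Rik* (0.49), and edgeR gave each an adjusted p of 1. With so few cells, nothing about the kinds is read from these counts.

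When cells were divided by the number of *Calcr* reads, the shares of cells with *Fos*, *Egr1* and *Dtx4* were higher in every class above 0 than in cells with 0, although the intervals of the classes with 1 to 9 and 10 to 99 reads overlapped that of cells with 0, as did that of the class with 100 or more for *Egr1*. *Fos* was read in 54.6% of the 238 cells with 0 *Calcr* reads (Wilson 95% interval 48.3% to 60.8%), 72% of 25 cells with 1 to 9 (52.4% to 85.7%), 68.6% of 35 with 10 to 99 (52% to 81.4%) and 72.2% of 79 with 100 or more (61.4% to 80.8%). *Dtx4* went from 36.1% (30.3% to 42.4%) to 60% (40.7% to 76.6%), 51.4% (35.6% to 67%) and 63.3% (52.3% to 73.1%). *Egr1* went from 67.2% (61% to 72.9%) to 88.0% (70.0% to 95.8%), 80% (64.1% to 90%) and 78.5% (68.2% to 86.1%). *Myf5* stood at 68.1% with 0 *Calcr* reads, 64% at 1 to 9, 80% at 10 to 99 and 84.8% at 100 or more (75.3% to 91.1%). *Pax7* ran from 87.8% to 94.9%. *Tgfb2* was read in 48.3% of cells with 0 *Calcr* reads and 38% of those with 100 or more. The classes had medians of 1857, 1959, 1941 and 2025 genes detected, the cells are pooled over mice, and these shares are a description with no test.

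**Figure D4:**
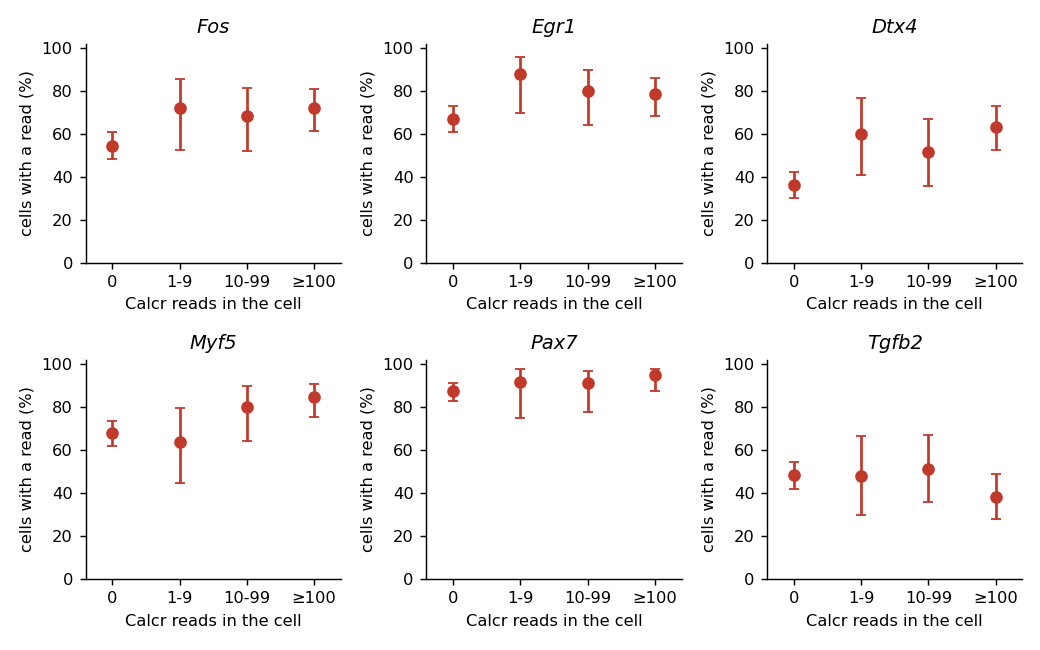
Percent of cells with a read of each of 6 genes, by the number of *Calcr* reads in the cell, with Wilson 95% intervals that cover counting error only. *Fos* and *Dtx4* are found in fewer of the cells with 0 *Calcr* reads than in any class above it, while *Myf5* is highest at 100 reads or more.

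Age was asked as an interaction, that is, whether the difference between the kinds was itself different in old mice. edgeR called 0 of 12588 genes (450 at an unadjusted p under 0.05, smallest adjusted p 0.967), and DESeq2 called 461 (3.66%), 148 above (1.18%) and 313 below 0 (2.49%). With 2 old mice, the old side rests on 39 positive cells. The named genes with the lowest interaction p were *Dag1*, *Nr4a1* and *Myf5*. *Dag1* had a log2 fold change of -0.12 in young and 1.44 in old mice (interaction 1.52, SE 0.40, edgeR adjusted p = 1). *Nr4a1* had a log2 fold change of 0.33 in young and 1.87 in old mice (interaction 1.51, SE 0.48, edgeR adjusted p = 1). Y7 was sequenced on lane 2 with both old mice, and Y4, Y5 and Y8 on lane 3, so within lane 3 there is no contrast of ages.

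Most defining markers of other cells had 0 reads or were read in 1 cell, while some members of their lists were read in many cells of both kinds. *Pecam1*, *Cdh5* and *Kdr* of endothelial cells were read in 1, 0 and 0 positive cells and in 0 negative cells, and 7 of the 10 endothelial markers had 0 reads. *Pdgfra* and *Dcn* of fibro-adipogenic cells, *Lyz2*, *C1qa* and *Cd3e* of immune cells, *Myh11* of smooth muscle, *Tnmd* of tendon, *Sox10* of glia and *Ckm* of myofibres had 0 reads. *Ptprc* was read in 1 negative cell. Other members of these lists were read in more cells. *Csf1r* was read in 7 positive and 15 negative cells, *Cd68* in 7 and 8, and *Atp2a1* in 7 and 13. *Abcc9* was read in 5 and 14, *Scx* in 5 and 8, and *Col1a1* in 10 and 6. Summed endothelial markers ran from 0 to 75.4 CPM in positive and 0 to 46.1 CPM in negative sums, and immune markers from 0.338 to 31.3 and from 3.06 to 21.98. The fibro-adipogenic list (1201 to 2502 CPM against 1316 to 3089) was carried by *Dpt* (read in 113 positive and 177 negative cells) and *Gsn* (118 and 194), the smooth muscle list (637 to 1294 against 322 to 1352) by *Acta2*, *Tagln* and *Notch3*, and the glial list (325 to 703 against 289 to 946) by *Pmp22* (81 and 114 cells). Tenocyte markers (0 to 199 against 0 to 28.6 CPM) and myofibre markers (0 to 51.8 against 2.43 to 31.8 CPM) overlapped between the kinds. Of all marker genes of other cells, 0 passed the adjusted threshold in edgeR and 0 had an unadjusted p under 0.05. *Pax7* was read in 130 of the 139 positive cells and 209 of the 238 negative cells.

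**Figure D5:**
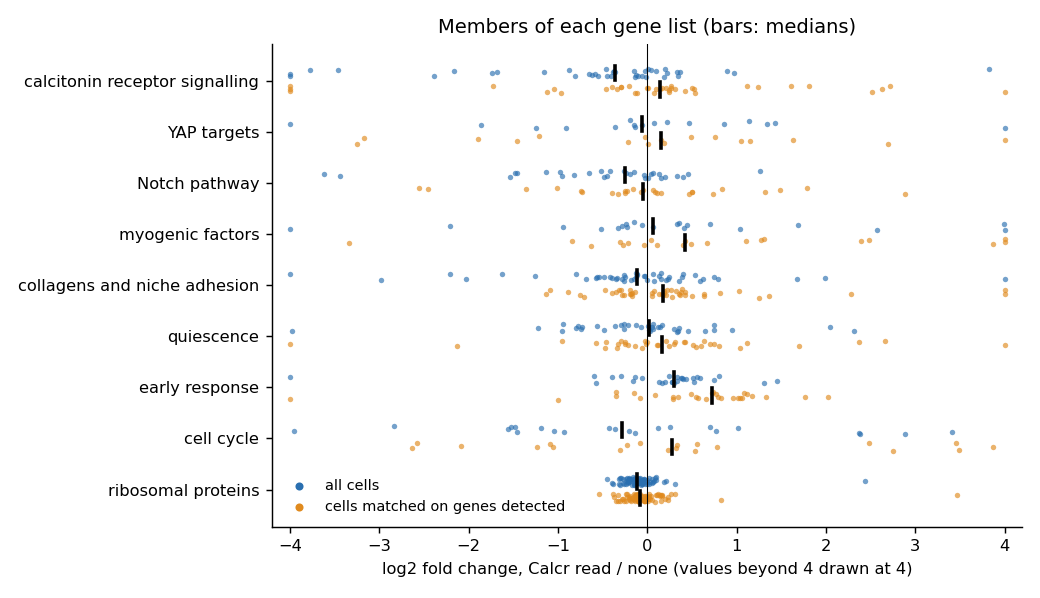
Fitted log2 fold change of every tested member of 9 gene lists, positive over negative cells, in all cells (blue) and in cells matched on genes detected (orange), with medians as bars. The early response list has the highest medians, 0.30 and 0.72, and those of calcitonin receptor signalling lie on either side of 0, at -0.36 and 0.14.

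Of the genes by which these cells can also be divided, *Myf5* was read in 273 of all cells, *Vcam1* in 280 and *Myod1* in 182. The share of cells with a read was 80.1% of positive and 68.1% of negative cells for *Myf5*, and 50.2% and 45.2% for *Myod1* (means of 6 mice). In matched cells the *Myf5* shares were 79.1% and 64.6%, higher in positive cells in 4 of 6 mice.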

How the data were processed

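The deposited table holds raw counts of reads per gene for single cells. According to the methods, the authors aligned paired-end reads with HiSat2 and quantified them in SeqMonk. The build per the labels is GRCm38, and tool versions, annotation release and strand handling are not given in the sources used here. Each cell had 101755 to 626142 reads, without molecular identifiers. On the table, 133 of 244 index sequences occur on both sequencing lanes and 0 in 2 mice of a lane. The methylation data and the experiment without the GFP-high gate were not analysed here.

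The members and gene lists were chosen with earlier results of these data known. *Calcr* was removed, counts were summed per mouse and kind of cell, and sums were compared with edgeR 4.0.16 (TMM, filterByExpr, quasi-likelihood test with the mouse as block, Benjamini-Hochberg adjustment, threshold 0.05) in R 4.3.3. The mouse is the pair because both sums come from the same animal. Standard errors were taken from the fold change and its F statistic. DESeq2 1.42.0, limma 3.58.1 on the mean log2(RPM + 1) of cells, DESeq2 size factors, no filter, thinning to 100000 reads, matching within 100 genes detected, a minimum of 10 *Calcr* reads, each age, each lane and each mouse left out were alternatives. CPM are counts per 1000000 of TMM-scaled sums. Where the mouse is block or pair, p-values rest on how the difference within a mouse varies over the 6 mice. Fits to 1 age, to 1 lane or without a mouse hold fewer mice. Per-mouse medians were compared by exact two-sided sign-flip permutation tests. Named genes were, with none past the threshold, the 5 of lowest p in each direction, the members of the calcitonin receptor signalling, YAP, Notch and myogenic lists, chosen collagen, adhesion and early response genes, and, chosen after their values were seen, *Atf3*, *Junb*, *Nr4a1*, *Btg2*, *Myc*, *Nid2*, *Bmp4*, *Apoe*, *Dek*, *Dnajb1*, *Ptp4a2* and the ribosomal protein genes. *Fosl1*, *Fosl2* and *Jund* were likewise added after their values were seen. Of the named lists, those members that mattered are given by value and the rest by counts. Positions are those of GENCODE M21. The rest was done in scipy 1.17.1, numpy 2.4.6, matplotlib 3.10.9 and pandas 2.3.3 under Python 3.11.15, and the test across genes was checked on simulated data.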

Additional observations from a re-analysis of the deposited data

Results flagged for a closer look

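Among 55 sets of 6 paired differences checked (53 named genes, genes detected and reads per cell), 4 held a mouse far from the other 5 by Dixon's ratio, and chance flags about 1 set in 20. Values are log2 ratios of positive to negative cells, with 1 CPM added to both. *Col5a1* was at 2.78 in Y4, with the other mice between -0.23 and 0.71. *Nid2* was at 4.08 in O1, with the others between 0.83 and 1.56. *Col5a3* was at -4.06 in O1, with the others between -0.77 and 1.0. *Myc* was at -0.81 in Y5, with the others between -0.33 and -0.07. Without that mouse the fitted log2 fold change was 0.26 for *Col5a1*, 1.29 for *Nid2*, -0.0017 for *Col5a3* and -0.20 for *Myc*.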

How the results depend on the processing

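The count of genes called was 0 in edgeR and limma under every alternative run, and 340 in DESeq2 with the mouse block. Leaving out each mouse in turn gave 0 to 0 calls. The paired design rests on both sums of a pair coming from the same mouse, and with no replicate block the count was again 0 (167 of 9723 genes at an unadjusted p under 0.05). For the interaction with age DESeq2 called 461 genes and every other fit 0, with 0 to 0 when a mouse was left out. The difference in genes detected was 123 by the mean of cells, 129 with at least 10 *Calcr* reads required and 123 in thinned cells, each past the threshold that the difference of medians (103, p = 0.0625 in an exact permutation test) missed, and it ran from 72.5 to 125 when a mouse was left out, where the smallest possible p is 0.0625. For reads per cell the values without a mouse ran from -452 to 14750, negative without Y5.

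Of 53 named genes, 29 kept the sign of their log2 fold change in all of the up to 22 alternative fits that gave a value, among them *Fos* (1.13 to 3.258), *Dtx4* (0.66 to 1.92), *Egr1* (0.43 to 2.58), *Myf5* (0.30 to 1.59), *Nid2* (0.81 to 2.54), *Odc1* (-1.44 to -0.32), *Sdc4* (-0.50 to -0.08) and *Tgfb2* (-1.48 to -0.59). The limma values in these ranges are differences in mean log2(RPM + 1) of cells, a different measure from the log2 fold change of summed counts. The upper ends for *Fos* and *Egr1* came from limma on the common genes of matched cells. The remaining 24 genes changed sign in at least 1 fit, and the following are their values there. A changed sign in limma is thus also a change of measure. In DESeq2 it was 0.05197 (*Notch3*), 0.06404 (*Col3a1*). In edgeR with DESeq2 size factors it was 0.05178 (*Notch3*), 0.05929 (*Col3a1*). With no replicate block it was -0.11 (*Notch1*), 0.08048 (*Col5a3*), 0.0754 (*Col3a1*), 0.02066 (*Ccnd1*). In limma it was -0.40 (*Notch1*), 0.45 (*Notch3*), -0.07498 (*Rbpj*), 0.26 (*Myod1*), 0.0614 (*Pde4b*), 0.04516 (*Ctgf*), 0.05711 (*Col5a2*), 0.04301 (*Col5a3*), 0.54 (*Col3a1*), 0.45 (*Itgb1*), 0.12 (*Spry1*), 0.32 (*Ccnd1*), 0.18 (*Dek*). In thinned cells it was -0.08326 (*Ramp2*), 0.09186 (*Col3a1*). In thinned cells called again it was -0.03629 (*Heyl*), -0.02556 (*Ramp2*), 0.14 (*Col3a1*). In matched cells it was 0.11 (*Notch3*), 0.19 (*Col3a1*), 0.55 (*Ccnd1*), 0.01302 (*Dek*). With at least 10 *Calcr* reads required it was -0.42 (*Rbpj*), -0.05082 (*Pax7*), 0.05175 (*Col3a1*). In young mice it was 0.13 (*Notch3*), -0.13 (*Pax7*), -0.04527 (*Ramp2*), 0.009162 (*Pde4d*), 0.17 (*Col5a3*), 0.05985 (*Col3a1*), 0.12 (*Vcam1*), -0.12 (*Dag1*), 0.08598 (*Ccnd1*), 0.04061 (*Dek*). In old mice it was -0.23 (*Notch1*), -0.09093 (*Heyl*), -0.18 (*Prkar1a*), 0.24 (*Pde4b*), -0.01168 (*Col5a1*), -0.23 (*Cdh15*). On lane 2 it was -0.085 (*Atf3*), -0.25 (*Notch1*), -0.11 (*Rbpj*), -0.12 (*Prkar1a*), 0.09746 (*Pde4b*), -0.15 (*Cdh15*). On lane 3 it was 0.13 (*Notch3*), -0.04646 (*Heyl*), -0.0145 (*Pax7*), 0.01532 (*Des*), -0.18 (*Ramp2*), 0.001256 (*Col5a2*), 0.31 (*Col5a3*), 0.09716 (*Col3a1*), 0.34 (*Vcam1*), 0.38 (*Ccnd1*), 0.15 (*Dek*). In limma on the common genes it was 0.45 (*Notch3*), 0.0614 (*Pde4b*), 0.54 (*Col3a1*), 0.45 (*Itgb1*). In limma on the common genes of matched cells it was 0.14 (*Notch3*), 0.74 (*Col3a1*), 0.028 (*Vcam1*), 0.09983 (*Itgb1*), -0.01927 (*Dag1*). Over fits without 1 mouse the range was -0.14 to 0.09573 (*Col3a1*), -0.54 to 0.18 (*Col5a2*), -0.25 to 0.59 (*Heyl*), -0.32 to 0.12 (*Myod1*), -0.02586 to 0.40 (*Notch1*), -0.22 to 0.25 (*Notch3*), -0.07924 to 0.18 (*Pax7*), -0.20 to 0.05486 (*Pde4d*), -0.07805 to 0.17 (*Ramp2*), -0.43 to 0.07538 (*Vcam1*). The cause of these changes was not tested. The fits on common genes and the shares of cells in matched cells were chosen after seeing the data.

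The shallowest sum held 3956467 reads from 17 cells, 53.2% of the genes tested had a read in under 38 cells, and 2-fold changes were rarely recovered in simulated data. A cell with no *Calcr* read is not shown to lack the transcript, and with 2 old mice an effect of age was tested weakly. Counting with strand was not given in the sources used here, so overlapping genes are uncertain.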
